A study of Homo sapiens with 12 samples.

Results

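The genes described here encode 37 enzymes that make, salvage and balance nucleotides, chosen by name from the 20771 genes of the raw count table. They were sorted by step into PRPP supply (2 genes), de novo purine synthesis (9), de novo pyrimidine synthesis (5), thymidylate synthesis (4), salvage (10), nucleotide kinases (3) and breakdown or pool control (4). All 37 were in the table, and all 37 passed the filter on low counts that left 16515 genes for testing.

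The RNA came from EW8-RRM1-KO and TC71-RRM1-KO, derivatives of the Ewing sarcoma lines EW8 and TC71, a bone and soft tissue tumor driven by a fusion of EWS with an ETS factor. In all 4 groups the endogenous RRM1 gene, which encodes the large catalytic subunit of ribonucleotide reductase (RNR), had been targeted with CRISPR/Cas9, and the cells carried a codon-optimised RRM1 transgene in the Lenti-X-Tet-One vector that is expressed while doxycycline is present. Each line had 3 libraries labelled 0 h, from cells with doxycycline, and 3 labelled 48 h, from cells kept without doxycycline for 48 hours. Each derivative was grown from a single cell, so a line here is 1 clone, and the labels do not say whether replicates were separate cultures; the p-values measure the spread between these libraries.

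Cells assemble purines stepwise on phosphoribosyl pyrophosphate (PRPP) and build the pyrimidine ring before attaching it to PRPP. Salvage enzymes instead reuse bases and nucleosides, and RNR reduces ribonucleoside diphosphates to the deoxyribonucleotides used for DNA. Thymidylate has its own route, in which dUMP is methylated by thymidylate synthase, and nucleotidases and a dNTP hydrolase lower the pools again.

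Total counts per library ranged from 18468485 to 35698991. Every one of 12 Ewing sarcoma marker genes exceeded 1 CPM (counts scaled to library size) in all 12 libraries, whereas leukocyte and endothelial markers summed to at most 0.373 and 0.207 CPM. Fibroblast markers (6, of which 5 were in the table) summed to 140.0 to 176.5 CPM at 0 h and to 204.0 to 258.3 CPM at 48 h, and epithelial markers, mostly KRT18, also rose; the part of either in the results below was not tested. For the targeted gene RRM1, the 0 h libraries of EW8 held 214, 166 and 317 counts and its 48 h libraries 1201, 1449 and 1514. The TC71 libraries held 422, 316 and 418 before and 674, 707 and 778 after. The higher counts thus lay in the libraries labelled 48 h, in both lines. A codon-optimised transgene differs in sequence from the endogenous gene, and whether its reads entered these counts was not tested. Directions below follow the libraries as labelled. In bulk RNA, fewer cells with a transcript and less of it per cell cannot be told apart.

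Removal of doxycycline from EW8-RRM1-KO was followed by lower mRNA for most of these enzymes, and in TC71-RRM1-KO the changes were smaller and went both ways. In EW8, 29 of the 37 genes were lower at 48 h at an adjusted p below 0.05, against 31.6% of all genes tested, and 4 were higher (TK1, DGUOK, SAMHD1 and NT5E), against 37%. In TC71, 15 were lower, against 19.2% of all genes, and 10 were higher, against 22.9%. The median log2 fold change of the 37 genes was -0.33 in EW8 and -0.049 in TC71, while that of all genes tested was 0.031 and -0.001. Scaling by total counts alone moved the median of all genes in EW8 from 0.031 to 0.16 and left 6 members higher and 20 lower there (23.1% of called members higher, 12.1% with TMM) and 11 and 11 in TC71 (50% and 40.0%), with a TC71 median of 0.002. The EW8 decreases not called that way were those of IMPDH2, CAD, DCTD, DTYMK, HPRT1, APRT, UCK1, DCK and NUDT1. Relative to all genes, the EW8 median of the members was -0.36 under both scalings. A change of scaling shifts all genes nearly alike, so this difference could hardly have moved.

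Most of these changes were modest in size. With a fold above 2 also required, 2 members were lower in EW8 (DHODH and NME2), against 3.35% of all genes, and 1 was higher (NT5E), against 13.9%. In TC71 no member passed that rule in edgeR, where 3.26% of all genes were called higher and 0.854% lower; none had a fold above 2 with an unadjusted p below 0.05, and DESeq2 also called 0. The libraries of the 2 times did not overlap in EW8 for 28 members that were lower at 48 h (33.2% of all genes) and 5 that were higher (37.9%). In TC71 the corresponding numbers were 17 lower (23.7%) and 11 higher (25.9%). The ± values beside log2 fold changes are standard errors of the edgeR fit, and each group has n = 3 libraries.

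**Figure D1:**
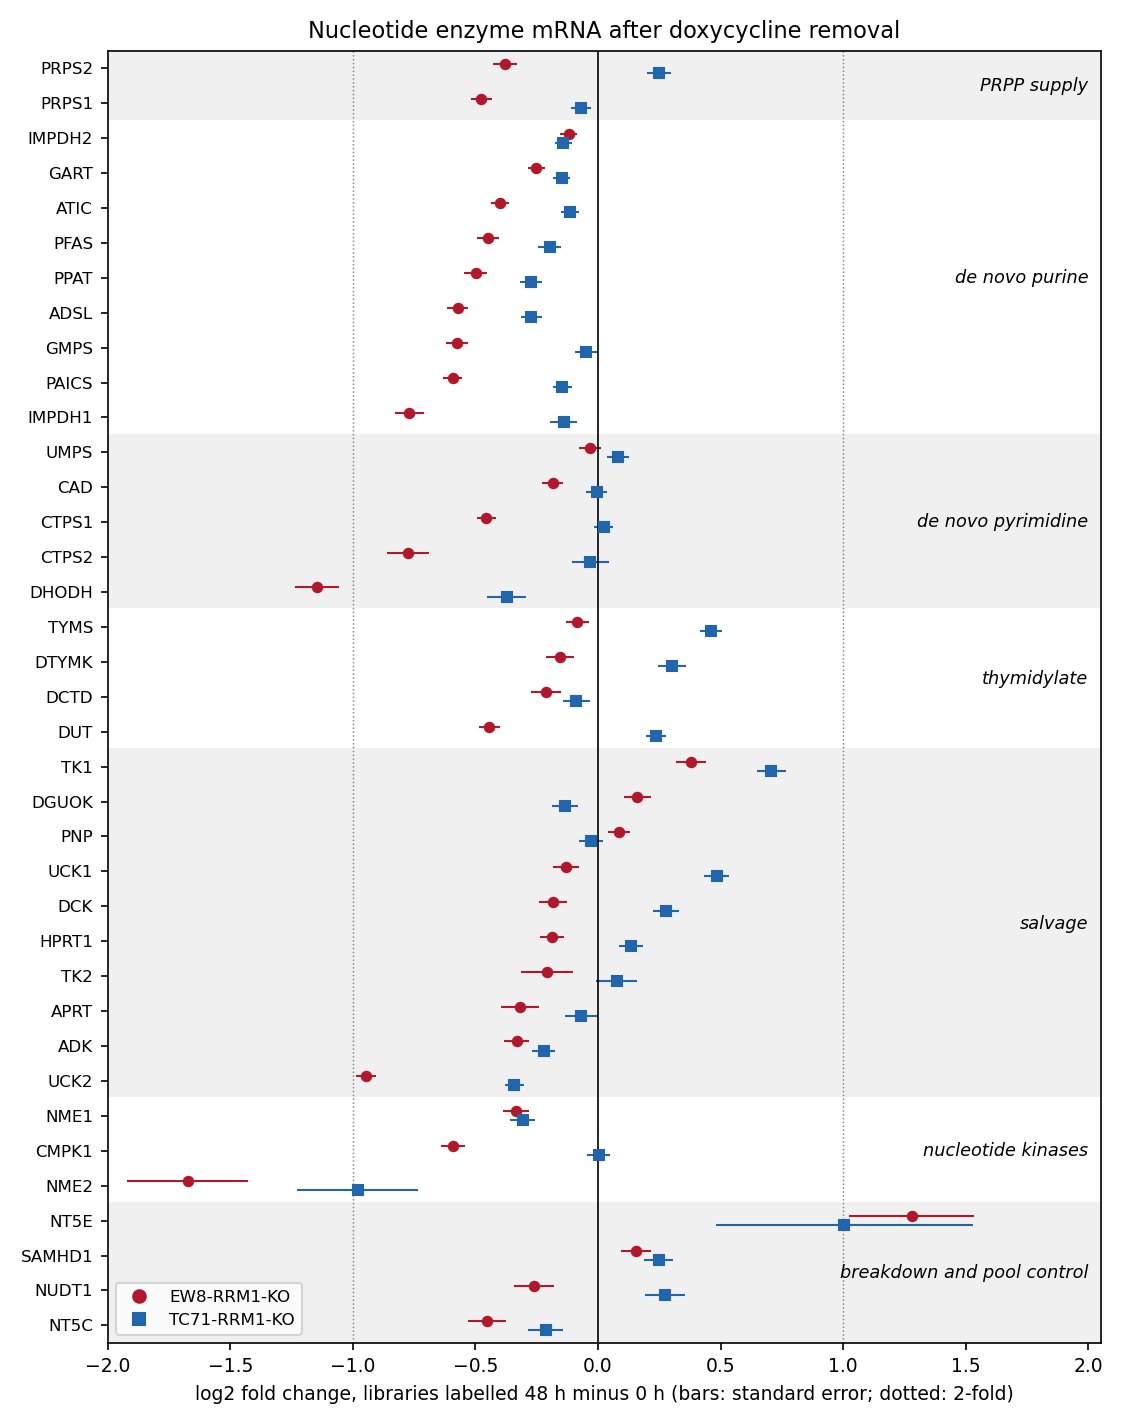
Log2 fold change (48 h minus 0 h, x axis) of each of the 37 enzyme genes, grouped by step, in EW8-RRM1-KO (red circles) and TC71-RRM1-KO (blue squares), with bars for the standard error and dotted lines at a fold of 2. All 9 de novo purine genes lie left of 0 in both lines with TMM scaling (IMPDH2 in EW8 is 0.004 with total counts alone), whereas DUT, TYMS and DTYMK lie right of 0 in TC71.

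PRPP, the activated sugar phosphate that purine, pyrimidine and salvage reactions all consume, is made by PRPS1 and PRPS2. PRPS1 stood at 136, 126 and 133 CPM in EW8 with doxycycline and at 93.0, 94.7 and 95.9 CPM without it, a decrease of 28.1% (log2 fold change -0.48 ± 0.043, adjusted p = 8.79e-12). In TC71 it was 117, 119 and 114 CPM and 113, 111 and 109 CPM (-0.069 ± 0.042, adjusted p = 0.193). The libraries did not overlap in either line, although the TC71 difference missed the threshold. PRPS2, its paralog, moved in opposite directions. It went from 83.8, 80.2 and 87.0 CPM to 64.3, 64.7 and 64.4 CPM in EW8 (-0.38 ± 0.050, adjusted p = 4.03e-08) and from 69.8, 68.9 and 65.5 CPM to 75.5, 84.0 and 83.0 CPM in TC71 (0.25 ± 0.049, adjusted p = 0.0001).

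De novo purine synthesis was lower at every enzyme in EW8. All 9 genes fell, with a median log2 fold change of -0.50, and in TC71 8 of the 9 fell, with a median of -0.15. With total counts alone 8 of the 9 fell in EW8 and 6 in TC71, where the median was -0.094, and DESeq2 size factors left 7 in TC71. The exception with TMM scaling was GMPS in TC71 (-0.049, adjusted p = 0.387). PPAT, the amidotransferase that commits PRPP to the purine route, lay on chromosome 4 (hg38, 56393362 to 56435615, minus strand). Its level was 101, 92.5 and 97.8 CPM at 0 h and 69.3, 69.2 and 67.6 CPM at 48 h in EW8 (-0.50 ± 0.047, adjusted p = 2.35e-11). In TC71 it went from 99.8, 97.9 and 103 CPM to 80.5, 86.3 and 81.9 CPM (-0.28 ± 0.045, adjusted p = 8.36e-06). Every 48 h library was below every 0 h library in both lines.

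PAICS, the bifunctional enzyme that carries out the carboxylation and succinylocarboxamide steps, is the head-to-head neighbor of PPAT, with annotated start sites 126 bases apart. PAICS had 678, 634 and 699 CPM at 0 h and 440.4, 457 and 437 CPM at 48 h in EW8, a fall of 33.7% (-0.59 ± 0.038, adjusted p = 9.96e-16). In TC71 it had 640.3, 624 and 632 CPM and 549.9, 585 and 579.7 CPM, a fall of 9.55% (-0.14 ± 0.038, adjusted p = 0.00213). Both neighbors therefore fell in both lines, and both fell further in EW8. The RefSeq promoter window of PPAT (GRCh38.p14, chr4:56435566-56435865, minus strand, from 250 bases before to 50 bases after the start) is shown because 236 of its bases also belong to a PAICS window. Capitals mark CACGTG, the canonical E-box, which begins 182 bases upstream of the PPAT start.
PPAT: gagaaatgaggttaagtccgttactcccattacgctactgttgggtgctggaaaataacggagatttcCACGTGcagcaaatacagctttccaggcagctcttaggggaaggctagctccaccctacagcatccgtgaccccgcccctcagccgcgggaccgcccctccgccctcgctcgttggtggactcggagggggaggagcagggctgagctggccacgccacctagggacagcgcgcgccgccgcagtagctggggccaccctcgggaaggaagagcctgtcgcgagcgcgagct

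The other enzymes on the way to IMP also fell in both lines. GART, a trifunctional enzyme that acts early in ring assembly, fell by 16.1% in EW8 and by 9.76% in TC71, from 388, 378 and 392 to 324, 327 and 322 CPM and from 308, 300.1 and 306 to 275, 271 and 279 CPM. PFAS, the amidotransferase that follows, fell by 26.7% and 12.7%. ADSL, which cleaves succinyl groups both on the way to IMP and on the way to AMP, fell by 32.8% (-0.57 ± 0.042) and 17.2% (-0.27 ± 0.043). ATIC, which closes the ring to give IMP, fell by 24.2% in EW8 (-0.40 ± 0.037) and by 7.64% in TC71 (-0.12 ± 0.037, adjusted p = 0.0131). The ATIC call in TC71 was lost without 0 h replicate 3 or without 48 h replicate 1 of that line, with total counts alone (-0.064, adjusted p = 0.131) and with a replicate block (adjusted p = 0.0636).

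On the guanine branch, IMPDH1 and IMPDH2 oxidise IMP to XMP, the rate-limiting reaction, and GMPS aminates XMP to GMP. IMPDH1 read 159.8, 177 and 167 CPM at 0 h and 106, 93.8 and 95.4 CPM at 48 h in EW8, a fall of 41.3% (-0.77 ± 0.059, adjusted p = 2.88e-11). In TC71 it read 169, 184 and 170.2 CPM and 168, 142 and 164 CPM (-0.14 ± 0.056, adjusted p = 0.0489), a call that leaving out any 1 of 7 libraries removed. The IMPDH1 call in TC71 was also lost under 7 alternatives of scaling, filter or model, at adjusted p values from 0.0538 to 0.288. IMPDH2, per kilobase of transcript the most abundant of the 37 at 295 ± 5.24 CPM per kb in EW8 at 0 h (SD) and 322 ± 4.74 in TC71, fell by 7.99% and 9.39% with TMM scaling, while with total counts alone its EW8 log2 fold change was 0.004 (adjusted p = 0.909). An unnamed gene model on the same strand shares 32.8% of its exon sequence. GMPS went from 280.0, 268 and 296 CPM to 192, 196 and 179 CPM in EW8 (-0.57 ± 0.044, adjusted p = 9.36e-14), with no overlap, and its TC71 libraries overlapped.

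**Figure D2:**
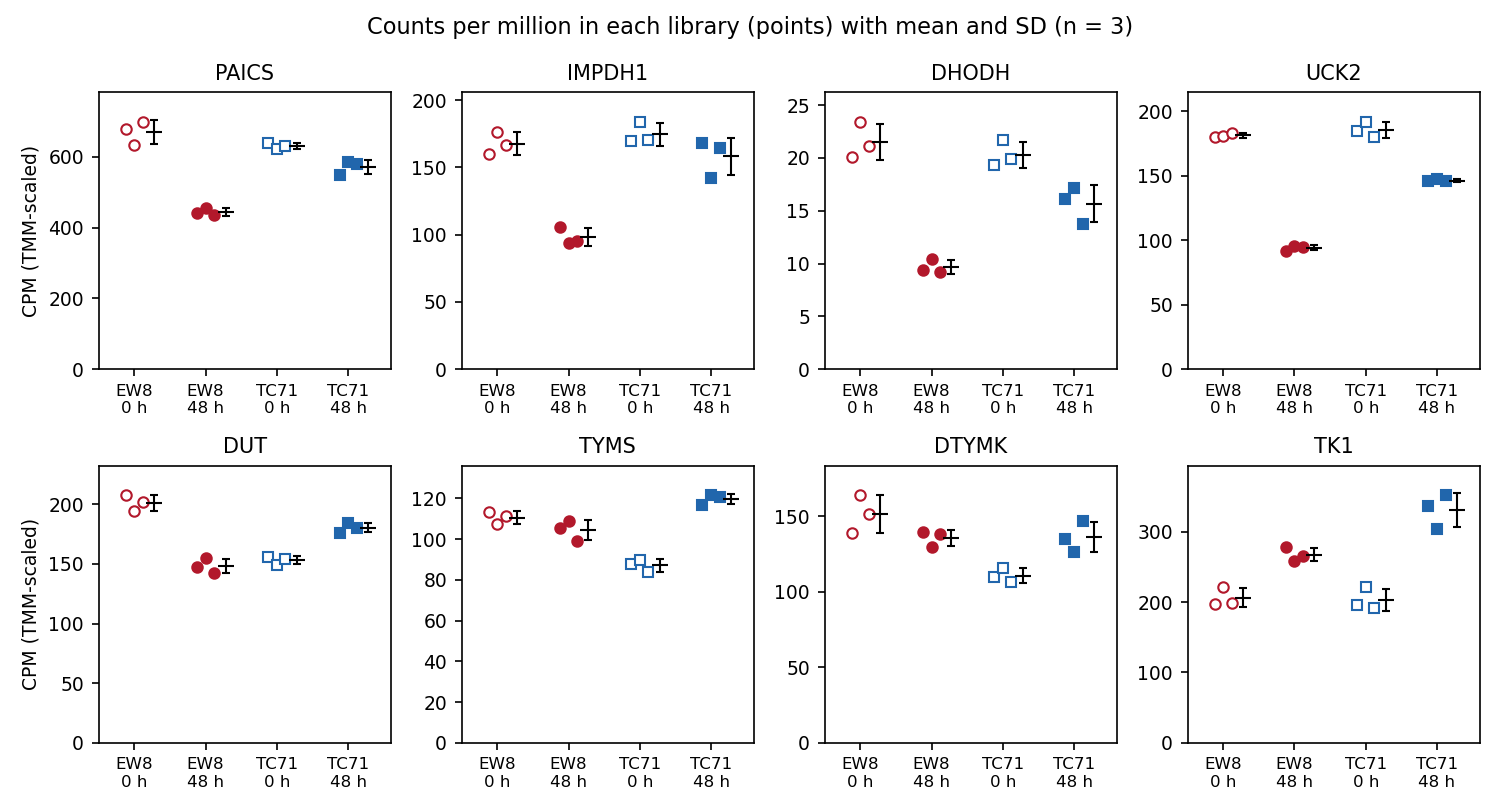
TMM-scaled CPM (y axis, from 0) of 8 enzyme genes in each of the 12 libraries, with EW8 in red circles, TC71 in blue squares, 0 h open and 48 h filled, and a black bar for the mean and SD of 3 libraries. PAICS, IMPDH1, DHODH and UCK2 drop in EW8 and less in TC71, DUT drops in EW8 and rises in TC71, and TK1 rises in both.

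De novo pyrimidine synthesis differed more from enzyme to enzyme. In EW8 4 of the 5 genes fell (median -0.46), and in TC71 only DHODH fell among the 5 (median -0.005, which became 0.046 with total counts alone). With total counts alone 3 of the 5 fell and 1 (UMPS) rose in EW8, and 1 fell and 1 (UMPS) rose in TC71. CAD, the large protein that carries the opening reactions, had 629, 710.3 and 630.0 CPM at 0 h and 592, 579 and 562 CPM at 48 h in EW8 (-0.18 ± 0.043, adjusted p = 0.000353). In TC71 its libraries overlapped (-0.005 ± 0.043, adjusted p = 0.943).

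DHODH, the mitochondrial dehydrogenase that oxidises dihydroorotate and the target of brequinar and leflunomide, was the de novo gene with the largest fall in either line. In EW8 it lay at 20.1, 23.4 and 21.1 CPM with doxycycline and at 9.36, 10.4 and 9.25 CPM without it, a loss of 54.9% (-1.15 ± 0.090, adjusted p = 2.24e-13). In TC71 it lay at 19.3, 21.7 and 19.9 CPM and 16.1, 17.2 and 13.8 CPM, a loss of 22.7% (-0.37 ± 0.080, adjusted p = 0.000306). No 48 h library reached a 0 h library in either line. With the fold of 2 placed inside the test, DHODH was no longer called in EW8. Its promoter window (GRCh38.p14, chr16:72008494-72008793, plus strand) is shown with CACGTG in capitals, 159 bases upstream of the start.
DHODH: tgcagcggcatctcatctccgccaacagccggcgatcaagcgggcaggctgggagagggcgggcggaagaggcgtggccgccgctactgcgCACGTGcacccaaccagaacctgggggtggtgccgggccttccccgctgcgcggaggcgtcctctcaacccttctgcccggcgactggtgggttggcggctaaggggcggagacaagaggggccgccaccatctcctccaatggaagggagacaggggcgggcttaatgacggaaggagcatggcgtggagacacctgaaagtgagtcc

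UMPS, which joins orotate to PRPP and decarboxylates the product to UMP, was the de novo gene without a call in either line. It read 141, 131 and 148 CPM and 136, 139 and 136 CPM in EW8 (-0.032 ± 0.045, adjusted p = 0.545), and with total counts alone the value was 0.093 (adjusted p = 0.0482). In TC71 it read 110.5, 114 and 112 CPM and 114, 122 and 120.4 CPM (0.080 ± 0.045, adjusted p = 0.152). Libraries overlapped in both lines. CTPS1 and CTPS2 aminate UTP to CTP. CTPS1 moved from 251, 239.6 and 254 CPM to 181, 184 and 179 CPM in EW8 (-0.46 ± 0.040, adjusted p = 4.65e-12), and the less abundant CTPS2 from 19.9, 20.8 and 19.4 CPM to 10.5, 13.2 and 11.3 CPM (-0.77 ± 0.085, adjusted p = 7.19e-10). In TC71 neither passed the test (0.023 ± 0.039 for CTPS1 and -0.031 ± 0.076 for CTPS2), and both sets of libraries overlapped.

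The median of the thymidylate genes had opposite signs in the lines, and DUT and DTYMK were called in opposite directions. In EW8 3 of the 4 genes fell (median log2 fold change -0.18) and in TC71 3 of the 4 rose (median 0.27). The signs of the medians held with total counts alone, although only 1 of the 4 was then called in EW8. DCTD, which deaminates dCMP to dUMP, had 35.3, 32.6 and 36.9 CPM and 28.8, 32.9 and 29.4 CPM in EW8 (-0.21 ± 0.061, adjusted p = 0.00267), with overlapping libraries, and -0.088 in TC71 (adjusted p = 0.19). DUT hydrolyses dUTP to dUMP and so keeps uracil out of DNA. DUT fell from 208, 194 and 202 CPM to 147, 155 and 142 CPM in EW8 (-0.44 ± 0.042, adjusted p = 2.03e-11) and rose from 156, 149 and 154 CPM to 176, 184 and 180.5 CPM in TC71 (0.23 ± 0.041, adjusted p = 2.06e-05). Neither line showed an overlap.

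TYMS, thymidylate synthase and the target of fluorouracil, stood at 113, 107 and 111 CPM in EW8 at 0 h and at 106, 109 and 98.9 CPM at 48 h (-0.084 ± 0.046, adjusted p = 0.103). In TC71 it climbed from 87.6, 89.8 and 83.6 CPM to 117, 122 and 121 CPM, by 37.6% (0.46 ± 0.045, adjusted p = 3.88e-10). The EW8 libraries overlapped and the TC71 libraries did not. Antisense genes (ENOSF1 and TYMSOS) share 47.9% of the TYMS exon sequence, and the strand setting of the counting is not given in the sources used here. DTYMK, the kinase that turns dTMP into dTDP, had 139, 164 and 151 CPM and 139, 129.9 and 139 CPM in EW8 (-0.15 ± 0.056, adjusted p = 0.0167, overlapping libraries) and 110.1, 116 and 106 CPM and 135, 127 and 147 CPM in TC71 (0.30 ± 0.056, adjusted p = 9.78e-05). The DTYMK call in EW8 was lost without 48 h replicate 2 and with total counts alone (-0.031, adjusted p = 0.679).

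A list of S-phase genes that holds none of the 37 was set beside this step. In EW8 the test called 13 of its 39 genes higher (37% of all genes) and 21 lower (31.6%), with a median of -0.14. In TC71 33 were higher (22.9%) and 3 lower (19.2%), with a median of 0.39. The number called higher in EW8 is close to the share of all genes. The part of S-phase content in the thymidylate values was not tested. The promoter windows of TYMS (GRCh38.p14, chr18:657403-657702, plus strand) and of DUT (chr15:48331947-48332246, plus strand, 1 of 4 windows listed for the gene) are shown because both hold a sequence typical of E2F sites. Capitals mark GCGGGAAA, the reverse complement of TTTCCCGC, which begins 39 bases before the TYMS start and 42 bases before the DUT start, and in DUT also TTTGGCGC, 27 bases before the start.
TYMS: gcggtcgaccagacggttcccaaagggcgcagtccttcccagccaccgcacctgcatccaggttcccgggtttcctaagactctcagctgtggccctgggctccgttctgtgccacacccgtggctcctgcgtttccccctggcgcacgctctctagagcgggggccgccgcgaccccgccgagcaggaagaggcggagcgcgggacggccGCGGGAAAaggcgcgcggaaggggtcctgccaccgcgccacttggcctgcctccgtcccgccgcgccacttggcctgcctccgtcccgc
DUT: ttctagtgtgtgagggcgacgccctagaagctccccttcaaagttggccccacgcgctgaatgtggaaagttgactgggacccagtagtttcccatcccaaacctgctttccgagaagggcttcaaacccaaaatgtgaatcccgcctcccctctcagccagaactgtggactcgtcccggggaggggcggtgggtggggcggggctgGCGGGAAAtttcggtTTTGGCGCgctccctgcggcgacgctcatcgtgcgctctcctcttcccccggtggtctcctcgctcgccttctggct

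Motifs were counted over the windows of the 35 members matched in the RefSeq table (ADSL and IMPDH2 were unmatched) and of all 27305 genes in it, on both strands. CACGTG, which reads the same on both strands, was found in 7 of the 35 (20.0%; ATIC, DCK, DHODH, NME1, NUDT1, PAICS and PPAT) and in 8.77% of all genes. PPAT and PAICS are both counted for 1 occurrence in the stretch their windows share. All 7 genes fell in EW8 with TMM scaling (DCK and NUDT1 were not called with total counts alone), and in TC71 5 fell while DCK and NUDT1 rose. Of the 28 matched members without it, 20 fell and 4 rose in EW8. TTTCCCGC (or GCGGGAAA) was found in 3 (DUT, PRPS2 and TYMS; 8.57%, against 1.98% of all genes), and all 3 rose in TC71, where 7 of the other 32 rose. TTTGGCGC (or GCGCCAAA) was found in DCK, DUT and GART (8.57%, against 0.795%), and CCAAT (or ATTGG) in 13 (37.1%, against 39.7%). The motifs do not overlap each other within the printed windows.

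Salvage genes had no common direction. In EW8 6 of the 10 fell and 2 rose (median -0.19), but with total counts alone 2 fell and 3 rose (median -0.060, 60% of calls higher against 25.0%). In TC71 3 fell and 4 rose (median 0.024, which was -0.004 with upper-quartile factors). TK1, the cytosolic thymidine kinase of proliferating cells, was the member with the largest rise in TC71 among those called. It stood at 198, 222 and 198 CPM at 0 h and 278, 259 and 266 CPM at 48 h in EW8, an increase of 30.1% (0.38 ± 0.060, adjusted p = 1.78e-05). In TC71 it went from 197, 221 and 192 CPM to 337, 305 and 352 CPM, an increase of 63.2% (0.71 ± 0.060, adjusted p = 1.99e-08). In each line all 48 h libraries were above all 0 h libraries, so TK1 rose in EW8 where TYMS, DUT and DTYMK did not.

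UCK2 and UCK1 phosphorylate uridine and cytidine. UCK2 dropped from 179.9, 181 and 183 CPM to 92.0, 95.8 and 94.5 CPM in EW8, by 48.1% (-0.95 ± 0.041, adjusted p = 2.73e-20), the smallest adjusted p of the 37 in that line. In TC71 it dropped from 184, 192 and 180.1 CPM to 146, 148 and 146 CPM, by 21.1% (-0.34 ± 0.039, adjusted p = 1.13e-08). UCK1 had 47.2, 50.01 and 47.0 CPM and 45.0, 42.8 and 43.8 CPM in EW8 (-0.13 ± 0.053, adjusted p = 0.0305) and 41.5, 43.7 and 42.1 CPM and 59.7, 57.2 and 61.0 CPM in TC71 (0.48 ± 0.051, adjusted p = 1.38e-09). Thus UCK2 fell in both lines, while UCK1 rose by 40.0% in TC71. The small UCK1 decrease in EW8 lost its call without 48 h replicate 2 or 3, and with total counts alone it was -0.004 (adjusted p = 0.953).

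The deoxynucleoside kinases DCK (cytosolic, and the enzyme that activates gemcitabine and cytarabine) and DGUOK (mitochondrial) had opposite signs within each line. DCK went from 43.9, 39.2 and 43.2 CPM to 37.9, 36.8 and 36.9 CPM in EW8 (-0.18 ± 0.057, adjusted p = 0.00507) and from 46.8, 44.6 and 45.6 CPM to 53.3, 58.7 and 54.1 CPM in TC71 (0.28 ± 0.053, adjusted p = 7.8e-05). DGUOK went from 39.7, 39.3 and 41.7 CPM to 44.3, 44.01 and 46.9 CPM in EW8 (0.16 ± 0.056, adjusted p = 0.0109) and from 49.9, 50.7 and 45.9 CPM to 44.5, 43.0 and 45.6 CPM in TC71 (-0.14 ± 0.053, adjusted p = 0.0376). None of the 4 comparisons had overlapping libraries, yet the DGUOK calls were lost without any 1 of 3 libraries in EW8 and any 1 of 4 in TC71. The DGUOK call in TC71 was also lost with total counts alone (adjusted p = 0.187), the DESeq2 Wald test (0.0769) and no filter (0.0576). Fitting each line alone (0.0554) or with a replicate block (0.0918) removed it too. With total counts alone the DCK value in EW8 was -0.059 (adjusted p = 0.354). TK2, the mitochondrial thymidine kinase, was among the least abundant members at 1.65 ± 0.0971 CPM per kb in EW8 at 0 h and passed the test in neither line (-0.21 and 0.077).

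Among the purine salvage enzymes, ADK, which phosphorylates adenosine, fell by 20.5% in EW8 (-0.33 ± 0.051) and by 14.2% in TC71 (-0.22 ± 0.047). HPRT1, which returns hypoxanthine and guanine to nucleotides, had 95.2, 87.1 and 93.0 CPM and 79.0, 85.3 and 78.0 CPM in EW8 (-0.19 ± 0.049, adjusted p = 0.00115) and rose in TC71 (0.13 ± 0.048, adjusted p = 0.0249), a call that leaving out any 1 of 5 libraries removed. APRT, which does the same for adenine, fell by 19.8% in EW8 (-0.32 ± 0.077, adjusted p = 0.00119) and was -0.068 in TC71 (adjusted p = 0.452). The HPRT1 call in TC71 was also lost with upper-quartile factors (adjusted p = 0.057) and with a replicate block (adjusted p = 0.0789). PNP, which splits purine nucleosides into base and sugar phosphate, passed the test in neither line with TMM scaling (0.085 and -0.030), although its EW8 libraries did not overlap. With total counts alone PNP was called higher in EW8 (0.21, adjusted p = 9.83e-05).

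Where isoenzymes share a reaction, the make-up of the pair was compared as the share of summed CPM per kilobase of transcript, which scaling cannot change. UCK2 made up 61.96 to 63.67% of UCK2 plus UCK1 in EW8 at 0 h and 47.93 to 50.2% at 48 h. In TC71 its share was 65.84 to 66.66% and 51.8 to 53.71%. The share of UCK2 thus dropped in both lines with no overlap between libraries. IMPDH2 rose from 82.1 ± 0.614% (SD) to 87.8 ± 0.742% of the IMPDH pair in EW8 and had a mean of 82.8% at both times in TC71. The DCK share of DCK plus DGUOK fell from 31.0 ± 1.10% to 26.1 ± 0.820% in EW8 and rose from 28.7 ± 1.24% to 34.9 ± 1.81% in TC71. PRPS1 went from 65.2 to 63.6% of the PRPS pair in EW8 and from 67.2 to 62.2% in TC71. CTPS1 and TK1 dominated their pairs in every group, with mean shares from 94.5 to 95.6% and from 98.1 to 99.2%.

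**Figure D3:**
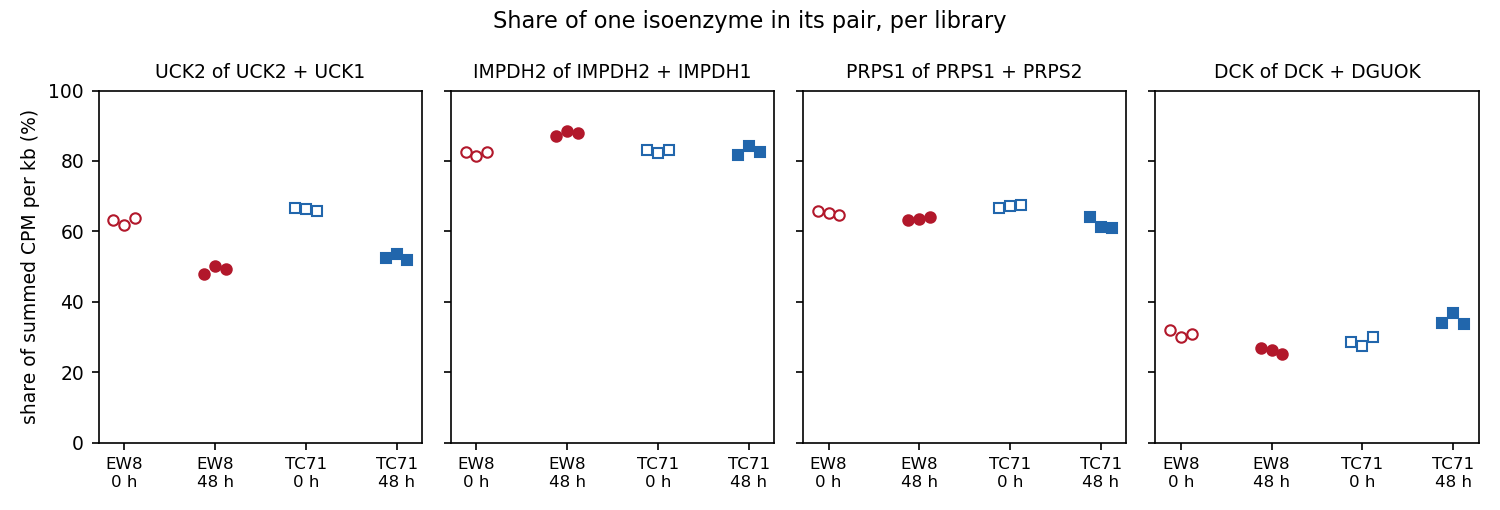
Share (%, y axis from 0 to 100) of the first isoenzyme in the summed CPM per kb of its pair, 1 point per library, for EW8 (red circles) and TC71 (blue squares), with 0 h open and 48 h filled. UCK2 falls from above 60% to about 50% in both lines, while the DCK share falls in EW8 and rises in TC71.

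Nucleoside mono- and diphosphate kinases carry the products on to triphosphates. CMPK1, which phosphorylates CMP, UMP and dCMP, went from 147, 133 and 145 CPM to 92.2, 99.2 and 91.0 CPM in EW8, a fall of 33.6% (-0.59 ± 0.048, adjusted p = 4.08e-13), and its TC71 libraries overlapped (0.002 ± 0.045, adjusted p = 0.976). NME1 fell by 20.7% in EW8 and by 19.2% in TC71. The counts of NME2 were low, and in EW8 they fell from 51, 52 and 91 to 17, 15 and 17 (-1.67 ± 0.248, adjusted p = 3.35e-07). In TC71 the NME2 counts were 41, 33 and 49 and 22, 35 and 17 (-0.98 ± 0.245, adjusted p = 0.00146). The 48 h libraries were lower by CPM in both lines, but NME1 and NME2 share 18.7% and 24.2% of their exon sequence with the read-through gene NME1-NME2, so reads could have been split between the 3 and both values are uncertain.

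Of the enzymes that break nucleotides down or clean the pool, SAMHD1, the dNTP triphosphohydrolase, rose in both lines. It went from 38.5, 41.1 and 42.6 CPM to 42.9, 43.4 and 49.9 CPM in EW8 (0.15 ± 0.062, adjusted p = 0.0265), a call lost without any 1 of 3 libraries, and from 45.5, 49.3 and 44.3 CPM to 54.8, 52.9 and 57.1 CPM in TC71 (0.25 ± 0.058, adjusted p = 0.000793). The SAMHD1 call in EW8 was also lost with upper-quartile factors (adjusted p = 0.0931), the DESeq2 Wald test (0.0683) and each line fitted alone (0.0592). NUDT1, which hydrolyses oxidised purine triphosphates, fell in EW8 (-0.26 ± 0.083, adjusted p = 0.00697) and rose in TC71 (0.27 ± 0.082, adjusted p = 0.00808), without overlap. The NUDT1 calls were lost without 48 h replicate 2 in EW8 and without 0 h replicate 3 in TC71, and with total counts alone the EW8 value was -0.135 (adjusted p = 0.194). NT5C, a cytosolic deoxynucleotidase, fell by 26.9% in EW8 and by 13.8% in TC71, and 60.2% of its exon sequence is shared with antisense genes, mainly ARMC7. The NT5C call in TC71 was lost without replicate 2 of either time and with total counts alone (-0.164, adjusted p = 0.0701). NT5E (CD73), the surface enzyme that turns AMP into adenosine, was the least abundant member. Its EW8 counts increased from 20, 12 and 20 to 31, 41 and 31 (1.28 ± 0.255, adjusted p = 4.18e-05). In TC71, where 0 h counts of 4, 3 and 2 became 9, 7 and 6, the difference did not pass the test (1.005 ± 0.525, adjusted p = 0.125).

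The difference between the responses of the lines was then tested as an interaction, the EW8 log2 fold change minus that of TC71. At an adjusted p below 0.05 the response was lower in EW8 for 23 of the 37 genes, against 22.4% of all genes, and higher for 1 (DGUOK), against 25.7%. With a fold above 2 also required there were 0 by edgeR, against 7.28% higher and 0.981% lower over all genes, and likewise 0 with an unadjusted p below 0.05 or by DESeq2. By step, the response was lower in EW8 for 7 of the 9 purine genes, 4 of the 5 pyrimidine genes, 3 of the 4 thymidylate genes and 5 of the 10 salvage genes. The greatest differences among called members were those of DHODH (-0.78 ± 0.122, adjusted p = 2.34e-06), CTPS2 (-0.74 ± 0.114, adjusted p = 1.74e-06) and DUT (-0.68 ± 0.059, adjusted p = 1.7e-11). For IMPDH2 (0.022 ± 0.048, adjusted p = 0.734) and NME1 (-0.026 ± 0.074, adjusted p = 0.804) no difference was detected. Called in opposite directions in the lines were 8 members (PRPS2, DUT, DTYMK, HPRT1, UCK1, DCK, DGUOK and NUDT1). With total counts alone this held for DUT and PRPS2. These 2 were also opposite at an adjusted p below 0.05 under each of the 8 other alternatives of scaling, filter or model and without any single library, but with a fold of 2 inside the test neither was called in either line.

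**Figure D4:**
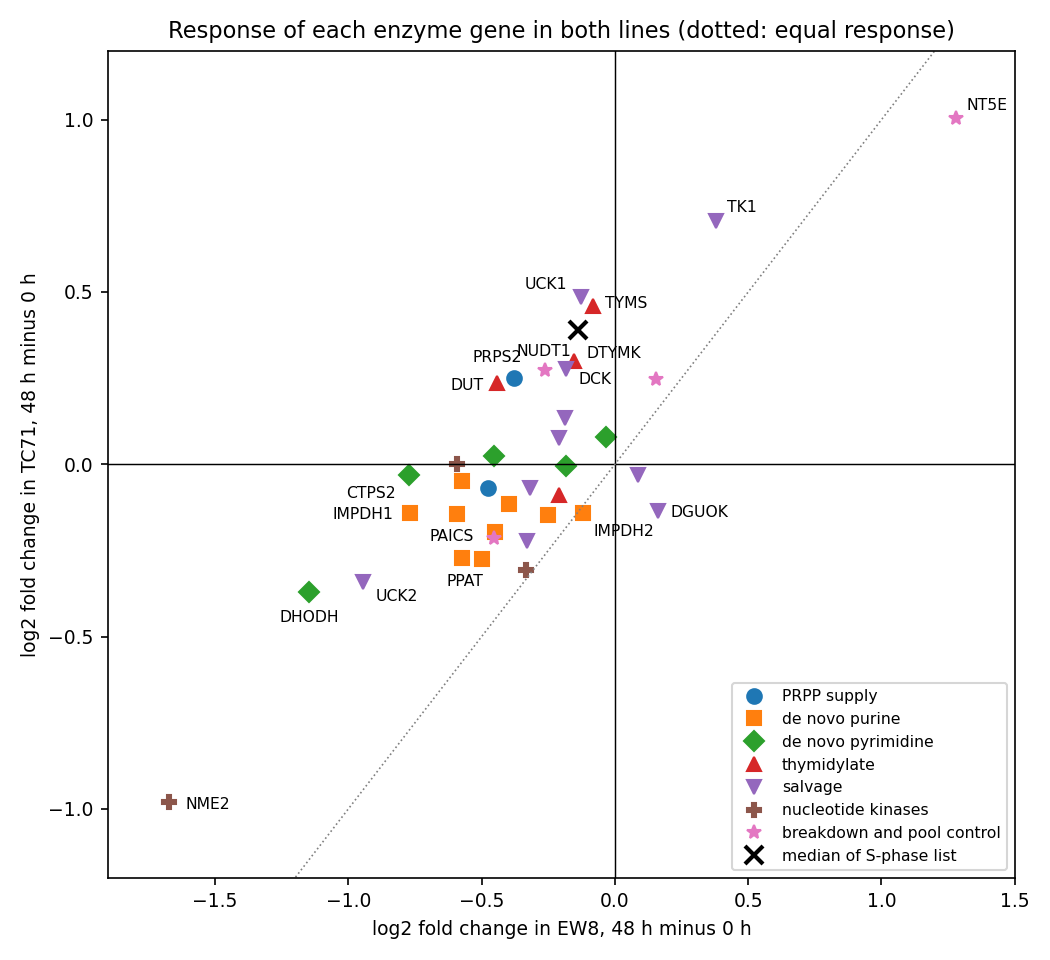
Log2 fold change (48 h minus 0 h, TMM scaling) of each enzyme gene in EW8 (x axis) and TC71 (y axis), with a symbol per step, a cross for the median of the S-phase list (-0.14 and 0.39) and a dotted line where both responses are equal. All but 4 genes (DGUOK, NT5E, PNP and IMPDH2) lie above the dotted line, and TYMS, DTYMK and DUT lie in the upper left with the S-phase list. So do PRPS2, UMPS, CTPS1, HPRT1, UCK1, TK2, DCK, CMPK1 and NUDT1 from other steps.

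Before doxycycline was removed, many of these enzymes differed between the lines, as did many of all genes tested. At 0 h 20 of the 37 were higher in EW8, against 32.8% of all genes, and 8 were lower, against 32.9%. With total counts alone 16 were higher and 13 lower, with a median of 0.008 for the members (0.14 with TMM) and -0.14 for all genes, and with upper-quartile factors 17 were higher and 12 lower. The libraries of the lines did not overlap for 18 members that were higher in EW8 (34.0% of all genes) and 9 that were lower (34.3%). ADSL had 297, 287 and 305 CPM in EW8 and 148, 155 and 149 CPM in TC71, a 1.97-fold higher level (0.97 ± 0.042, adjusted p = 2.28e-20). PNP was 1.65-fold higher in EW8 (0.72 ± 0.048), whereas APRT was 1.82-fold lower (-0.86 ± 0.072) and DCTD 1.56-fold lower (-0.65 ± 0.056). By contrast, DHODH (0.085 ± 0.079, adjusted p = 0.354), UCK2 (-0.032 ± 0.039, adjusted p = 0.484) and IMPDH1 (-0.058 ± 0.057, adjusted p = 0.384) showed no detected difference at 0 h. With a fold above 2 also required, NT5E alone was higher in EW8 (4.77% of all genes), from the low counts given above, and 0 were lower by edgeR (11.9%), as by DESeq2 and at an unadjusted p below 0.05.

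Per kilobase of transcript, the 37 genes spanned a wide range at 0 h. In EW8 the highest were IMPDH2 (295 ± 5.24 CPM per kb, SD), ATIC (184 ± 5.52), DTYMK (144 ± 11.9) and TK1 (144 ± 9.59), the last pair differing by less than their spread. The dehydrogenase DHODH, at 4.62 ± 0.365 CPM per kb, was among the lowest, with CTPS2 (5.07 ± 0.175), NME2 (3.86 ± 0.558), TK2 (1.65 ± 0.0971) and NT5E (0.203 ± 0.0384). In TC71 the order again began with IMPDH2 (322 ± 4.74), and TK1 (142 ± 11.1) and ATIC (137 ± 3.67) followed within their spread of each other.

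Neighboring genes of the pathway were taken from a list of 74, of which 62 were in the table and 60 were tested. In EW8 the test called 18 of the 60 higher (37% of all genes) and 26 lower (31.6%), and in TC71 14 each way (22.9% and 19.2%). RRM2, the small subunit that is made in S phase, rose by 0.99 ± 0.037 on the log2 scale in TC71 (adjusted p = 7.15e-21) and less in EW8 (0.25 ± 0.037, adjusted p = 3.72e-07). RRM2B, the p53-inducible small subunit, rose in EW8 (0.25 ± 0.057, adjusted p = 0.00022) and was 0.10 ± 0.056 in TC71 (adjusted p = 0.143). RRM1 itself had log2 fold changes of 2.88 ± 0.072 (EW8, adjusted p = 3.37e-27) and 0.65 ± 0.070 (TC71, adjusted p = 2.91e-09).

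Among 5 tested nucleoside transporters, 4 fell in EW8 (31.6% of all genes) and 1 fell in TC71 (19.2%). The TC71 number is close to the share of all genes, and SLC28A3, 1 of the 5, had 0 counts in every TC71 library. SLC29A1 (ENT1), which imports nucleosides and gemcitabine, fell in EW8 (-0.65 ± 0.042, adjusted p = 1.58e-15), and its value in TC71 was 0.091 ± 0.041 (adjusted p = 0.0751).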

How the data were processed

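Polyadenylated RNA of 12 libraries was prepared with a stranded kit (TruSeq Stranded mRNA) and sequenced on a NovaSeq 6000. Per the labels, the authors checked reads with FastQC and aligned them to hg38 with STAR. The deposited table holds raw counts per gene without normalization (smallest sum per gene, 21). The counting tool, annotation and strand setting are not given in the sources used here. Identifiers were matched to GENCODE release 44 (19943 of 20771) for coordinates, exon sharing and canonical transcript length.

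Counts were tested with edgeR 4.0.16 (R 4.3.3): filterByExpr (minimum count 10, minimum total 15), TMM factors, 1 robust quasi-likelihood fit over the 4 groups of 3, Benjamini-Hochberg adjustment over 16515 genes. The tests compared the times within each line, the 2 responses with each other, and the lines at 0 h. CPM are TMM-scaled. The biological coefficient of variation was 4.17%. Within groups, a chi-square per gene between libraries was 1.949 to 8.56 (genes with at least 10 counts in the pair), above sampling noise, so all 12 were kept as separate samples. Counting error alone underlies the depth limits.

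The members, the 74-gene and S-phase lists, the markers and the alternatives were chosen with earlier results of these data known. All members could be named, pathway neighbors only past a fold of 2 or where a step turned on them (RRM2, RRM2B and SLC29A1, chosen after their values were seen). Isoenzyme pairs, named in the design, were compared per kilobase. Alternatives were DESeq2 size factors, total counts, upper-quartile factors, the DESeq2 1.42.0 Wald test, no filter, 10 counts in every library, each line alone, a replicate block, a fit that was not robust, an adjusted p below 0.01, a fold inside the test and leaving out each library. The fit was tested on simulated data. Promoter windows came from RefSeq (GRCh38.p14). Figures used matplotlib 3.10.9 in Python 3.11.15. The authors used DESeq2 in their own analysis.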

Additional observations from a re-analysis of the deposited data

Results flagged for a closer look

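For 24 of the 37 genes the response to doxycycline removal differed between the lines by the interaction test in edgeR (adjusted p below 0.05), and 23 of the 24 values, given here as the EW8 log2 fold change minus that of TC71, were negative. In PRPP supply and de novo purine synthesis they were -0.41 for PRPS1, -0.63 for PRPS2, -0.22 for PPAT, -0.25 for PFAS, -0.45 for PAICS, -0.30 for ADSL, -0.28 for ATIC, -0.63 for IMPDH1 and -0.53 for GMPS. In de novo pyrimidine synthesis they were -0.18 for CAD, -0.78 for DHODH, -0.48 for CTPS1 and -0.74 for CTPS2. The thymidylate genes gave -0.68 for DUT, -0.54 for TYMS and -0.46 for DTYMK. Salvage gave -0.32 for HPRT1, -0.61 for UCK1, -0.60 for UCK2, -0.33 for TK1, -0.46 for DCK and, the 1 positive value, 0.30 for DGUOK. CMPK1 gave -0.59 and NUDT1 -0.53. The CAD difference lost its call with total counts alone and without EW8 48 h replicate 3. Each line is 1 clone, so a difference between lines cannot be told apart from a difference between clones.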

How the results depend on the processing

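Scaling by total counts alone moved the most values: the medians became -0.373 and -0.094 for the purine genes in EW8 and TC71, -0.33 and 0.046 for the pyrimidine genes, -0.058 for the thymidylate genes in EW8, and -0.06 and 0.074 for the salvage genes, and the EW8 values of IMPDH2 and UMPS turned to 0.004 and 0.093. Upper-quartile factors gave medians of -0.223 (thymidylate, EW8), -0.225 (salvage, EW8) and -0.004 (salvage, TC71), and 1 member past a fold of 2 in TC71 (NME2). Fitting each line alone gave -0.213 for salvage in EW8. A fold of 2 inside the test left 1 member called in EW8 (NME2). An adjusted p below 0.01 left 2 members higher in EW8. Requiring 10 counts in every library left 0 members past a fold of 2 between the lines at 0 h, since NT5E was then not tested. Replicates with the same number did not deviate together (correlations from -0.138 to -0.015), and a fit with the number as a replicate block called 1 member past a fold of 2 in TC71 (NME2), 4 higher and 28 lower in EW8, and 9 higher and 12 lower in TC71.

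Leaving out each library in turn gave 3 members past a fold of 2 in EW8 each time, 0 to 1 in TC71 and 1 to 2 between the lines at 0 h, 2 to 4 higher and 27 to 32 lower in EW8, 8 to 10 higher and 12 to 15 lower in TC71, and 23 to 29 with an interaction. The 2 came without EW8 0 h replicate 1 or 2 or without EW8 48 h replicate 3, where DGUOK and SAMHD1 lost their calls. Medians ranged from -0.564 to -0.486 and -0.16 to -0.141 (purine, EW8 and TC71), -0.514 to -0.445 and -0.037 to 0.011 (pyrimidine), -0.245 to -0.172 and 0.239 to 0.281 (thymidylate), and -0.259 to -0.169 and 0.0 to 0.045 (salvage). Of 1332 single-member values without 1 library, 32 lost a call, 18 gained one and 0 reversed. Counts of 20 or fewer per library limit the precision of the NME2 and NT5E values. No protein, nucleotide pool or transgene reads were analysed here.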

Other observations

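Genes next to the synthesis route that passed both an adjusted p below 0.05 (edgeR) and a fold above 2 were mostly low in counts and, PUDP apart, higher at 48 h. In EW8 8 of the 60 tested neighbors were higher by this rule, against 13.9% of all genes, and 1 was lower, against 3.35%. In TC71 3 were higher, against 3.26%. The EW8 share is close to that of all genes. XDH, which oxidises hypoxanthine and xanthine to urate, went from 11, 10 and 29 to 68, 78 and 108 counts in EW8 (2.64 ± 0.221, adjusted p = 1.05e-12) and from 35, 35 and 29 to 74, 84 and 113 counts in TC71 (1.19 ± 0.192, adjusted p = 5.88e-06). UPP1, which splits uridine into uracil and ribose phosphate, went from 4, 0 and 5 to 29, 20 and 22 counts in EW8, a pair of small samples for which no fold is given. In TC71 its counts went from 45, 26 and 34 to 89, 102 and 158 (1.47 ± 0.189, adjusted p = 1.1e-07). The muscle AMP deaminase AMPD1 rose in both lines, by 3.19 ± 0.222 in EW8 and 2.20 ± 0.304 in TC71 on the log2 scale (adjusted p = 9.11e-15 and 4.24e-07), from 12, 8 and 14 and 6, 6 and 7 counts at 0 h.

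In EW8 the rule also called AMPD3 (1.76), GMPR, which returns GMP to IMP (1.33), the cytidine deaminase CDA, which inactivates gemcitabine (1.54), and the guanine deaminase GDA (1.80), besides RRM1. PUDP, a pseudouridine phosphatase, was the 1 that fell (-1.02 ± 0.069, adjusted p = 3.61e-15). Of the 15 tested genes of catabolism and nucleotidases, EW8 had 7 higher at 48 h and 4 lower, against 37% and 31.6% of all genes, and TC71 had 6 higher and 2 lower, against 22.9% and 19.2%.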
